A study of Mus musculus with 12 samples.

Results

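Iron handling genes were followed in mouse hearts after doxorubicin (DOX), an anthracycline used against cancer that is known to damage the heart and to bind iron. The 10 genes chosen were Tfrc, Slc11a2, Fth1, Ftl1, Slc40a1, Hamp, Aco1, Ireb2, Cp and Trf, and every Affymetrix probe set that the platform annotation assigns to a single one of them was taken. This gave 25 of the 45037 probe sets in the deposited table, and they cover 8 of the 10 genes. Ftl1 was present only on 3 probe sets shared with its pseudogene copy Ftl1-ps2, and Trf only on 1 probe set shared with Srprb, so neither gene has a value of its own.

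Whole-heart RNA of male C57BL/6J mice aged 8 to 10 weeks was hybridised on 12 arrays, 3 for each of 4 groups. WT control hearts came from wild-type mice without treatment, and WT DOX hearts were collected 5 days after 1 intraperitoneal injection of 15 mg/kg DOX. The CHIP-altered control and CHIP-altered DOX groups were treated alike, but the deposited labels call these mice CHIP knockouts whereas the paper describes a transgene that expresses CHIP in cardiac myocytes. The paper also gives another dose and age, and saline for the controls. Stub1, which encodes the ubiquitin ligase and cochaperone CHIP, goes against the knockout label on 1 of its 2 probe sets. On the brighter the intensity was 1790 to 1857 on the WT control arrays and 8762 to 9817 on the CHIP-altered control arrays. After DOX it was 1930 to 1950 in WT and 5561 to 8723 in CHIP-altered hearts. On the other the genotypes overlapped, with means of 1115 in WT and 1084 in CHIP-altered hearts without DOX (log2 difference -0.04, limma adjusted p = 0.936) and 1267 and 1195 after DOX (log2 difference -0.08, limma adjusted p = 0.736). The labels and the paper differ, and the arrays are therefore called CHIP-altered throughout. Intensities are linear and in arbitrary units. Array medians lay between 28.9 and 30.4, and arrays of a group correlated with r of 0.988 to 0.997. CHIP-altered control replicate 3 stood apart, with 303 probe sets above all other arrays by over 0.5 on the log2 scale, against 1 to 122 on the others. Cardiomyocyte markers were bright throughout, with a summed intensity of 10 genes between 147601 and 179410, and Myh6 was at 13705 to 23074. S100a8, a neutrophil marker, ranged from 87.1 to 3095 and overlapped between all groups. The labels call the arrays biological replicates but do not say whether each came from a single heart. With 3 arrays a group the precision is limited by their number.

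Cells take up transferrin-bound iron through the transferrin receptor, move it out of the endosome through DMT1, store it in ferritin and release it through ferroportin, which hepcidin removes from the membrane. The iron regulatory proteins IRP1 and IRP2 bind hairpins in the messages when iron is low. This stabilises the transferrin receptor message and blocks translation of the ferritin messages, so that ferritin can change without a change in its mRNA. Ceruloplasmin oxidises the exported iron for loading onto transferrin.

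The stretch just upstream of the annotated start is shown for the 3 genes whose values stand out below: Tfrc (largest change), Cp (8 probe sets that moved one way) and Hamp (high on 1 array). Sequences are from RefSeq, build GRCm38.p6, 5′ to 3′ on the gene's strand. They lie at chr16:32608646-32608895 (plus strand) for Tfrc, chr3:19956804-19956932 (plus strand) for Cp and chr7:30944030-30944279 (minus strand) for Hamp. Capitals mark the only match to the STAT site TTCNNNGAA, in Hamp.
Tfrc: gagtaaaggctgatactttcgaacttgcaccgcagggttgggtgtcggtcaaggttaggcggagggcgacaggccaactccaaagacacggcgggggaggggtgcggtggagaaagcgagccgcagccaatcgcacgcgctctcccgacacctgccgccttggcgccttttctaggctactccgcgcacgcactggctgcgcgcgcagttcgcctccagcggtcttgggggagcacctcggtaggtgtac
Cp: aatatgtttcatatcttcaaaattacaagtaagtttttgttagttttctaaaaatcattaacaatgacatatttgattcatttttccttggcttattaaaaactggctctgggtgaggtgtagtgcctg
Hamp: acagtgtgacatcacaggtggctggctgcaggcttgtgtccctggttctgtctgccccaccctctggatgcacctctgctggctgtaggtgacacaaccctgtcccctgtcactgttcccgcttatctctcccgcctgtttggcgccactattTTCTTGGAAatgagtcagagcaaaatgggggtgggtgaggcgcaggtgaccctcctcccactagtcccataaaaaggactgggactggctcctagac
The RefSeq table held 10 start sites for 7 of the 10 genes, Tfrc, Fth1, Ftl1, Hamp, Aco1, Ireb2 and Cp. In the 250 bases before these starts, on both strands, the antioxidant response element core TGACNNNGC had no match, against 10.2% of all 32851 promoters. The hypoxia response element core ACGTG matched only before the second of 2 Tfrc starts (16.6% of all promoters), and the STAT site only before Hamp (7.02%). The loop letters of an iron-responsive element, CAGTGN, were not found in the first 50 bases after any of the 10 starts, and 13.2% of all promoters had them there. The rest of each message was not searched, so this cannot show that a message lacks the hairpin. The hypoxia and STAT letters were chosen after the array values were seen. A match describes letters in a window and is no evidence of binding.

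DOX was followed by a fall of the transferrin receptor and a rise of ceruloplasmin in both genotypes, while no probe set of ferritin heavy chain, ferroportin, hepcidin, DMT1, IRP1 or IRP2 passed the test. Probe sets were called at a Benjamini-Hochberg adjusted p under 0.05 over all 45037, from limma on log2(intensity + 32), and log2 values below are differences on that scale. In WT hearts 3 of the 25 probe sets were higher after DOX (1.66% of all probe sets were called higher) and 1 was lower (1.4% of all). In CHIP-altered hearts 2 were higher (0.731% of all) and 1 was lower (1.47% of all). The 7 calls belong to Tfrc and Cp alone. The median log2 difference of the 25 was 0.25 in WT and 0.02 in CHIP-altered hearts, where that of all probe sets was -0.01 and 0.01. Cp alone holds 8 of the 25. On the brightest probe set of each of the 8 genes the median was 0.13 in WT and -0.02 in CHIP-altered hearts. The 3 DOX arrays lay all above the 3 controls for 9 of the 25 in WT, among them all 8 of Cp, and all below for 3. Of all probe sets 24.4% were separated in one or the other direction. In CHIP-altered hearts the counts were 5 above and 5 below, against 20.7% of all.

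**Figure D1:**
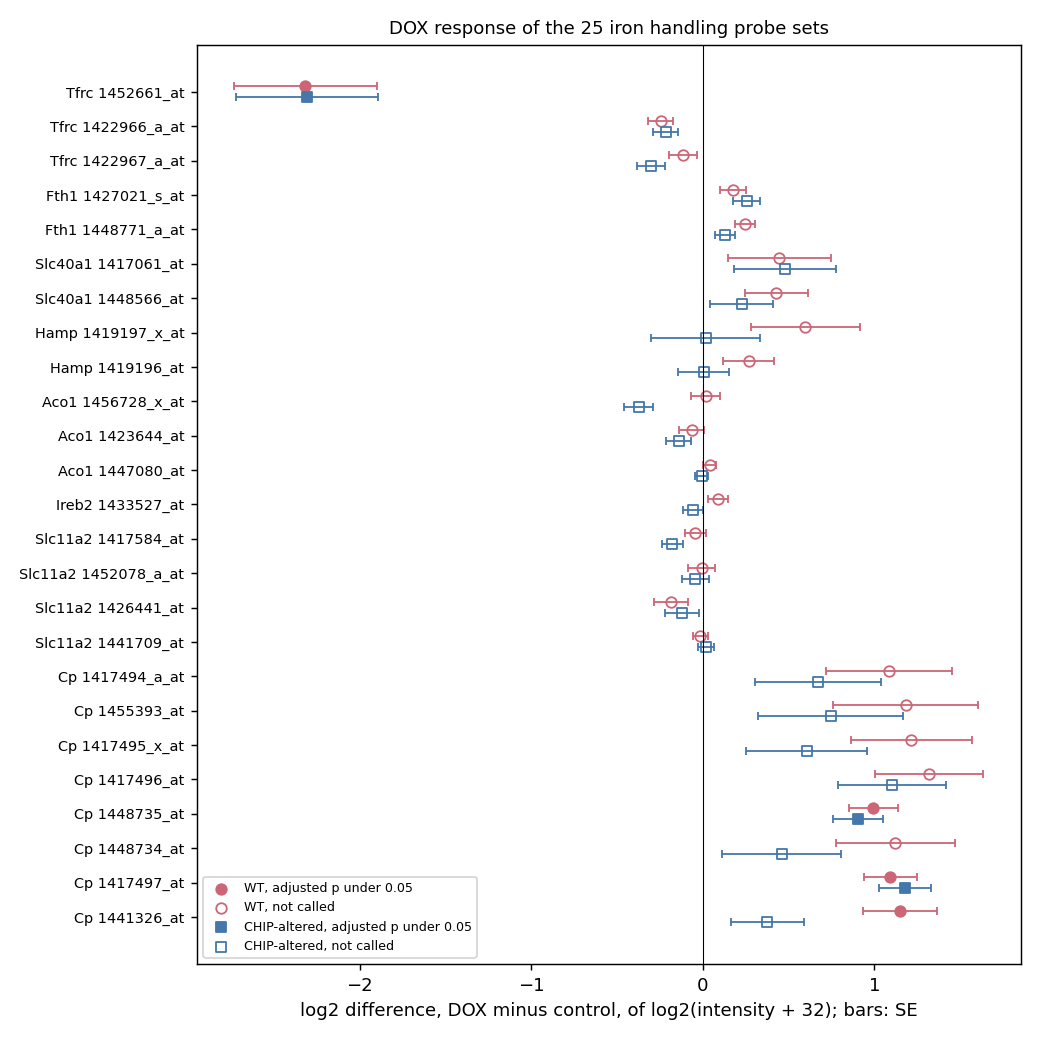
Log2 difference between DOX and control arrays (x axis, of log2(intensity + 32)) for each of the 25 probe sets (y axis), with circles for WT, squares for CHIP-altered hearts and bars for the standard error. Filled symbols mark an adjusted p under 0.05. The brightest Tfrc probe set lies at -2.32 and -2.31, all 8 Cp probe sets lie to the right of 0, and most others are within 0.5 of 0.

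Tfrc encodes transferrin receptor 1, the main route of iron into most cells. On its brightest probe set, 1452661_at, the intensity was 886, 464 and 543 on the WT control arrays and 128, 89.3 and 77.3 on the WT DOX arrays. In CHIP-altered hearts it was 1379, 1678 and 917 without DOX and 118, 219 and 472 after DOX. Every DOX array lay below every control array of its own genotype, and CHIP-altered DOX replicate 3 alone reached the lowest WT control value. The group mean fell from 631 ± 224 to 98.2 ± 26.5 in WT (SD, n = 3) and from 1325 ± 384 to 270 ± 183 in CHIP-altered hearts (SD, n = 3). The mean intensity was thus 6.43-fold lower in WT and 4.91-fold lower in CHIP-altered hearts. The log2 difference was -2.32 in WT (SE 0.41, limma adjusted p = 0.0253) and -2.31 in CHIP-altered hearts (SE 0.41, limma adjusted p = 0.0262). The interaction, which is the difference between these responses, was 0.01 (SE 0.59, limma adjusted p = 0.997).

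Both calls lie near the threshold, and each was lost in most fits with 1 array left out. Such a fit also has fewer arrays, so a lost call does not show that it rested on the array left out. When each of the 6 arrays was left out in turn, the log2 difference stayed between -2.50 and -2.06 in WT, but the adjusted p ranged from 0.0385 to 0.0857 and stayed under the threshold only without WT DOX replicate 3. In CHIP-altered hearts it ranged from 0.0183 to 0.0819 and stayed under the threshold only without CHIP-altered control replicate 3 or CHIP-altered DOX replicate 3.

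The other 2 Tfrc probe sets were dim and moved less, with no call. On 1422966_a_at the WT control arrays gave 75.5, 71.8 and 73.2 and the WT DOX arrays 53.6, 52.1 and 65.9. In CHIP-altered hearts they gave 83.6, 92.7 and 80.2, then 59.8, 73.2 and 74.7. On 1422967_a_at all 12 arrays were between 9.0 and 29.8. On both, every DOX array was again below every control array of its genotype. The log2 differences on the first were -0.25 in WT (limma adjusted p = 0.0988) and -0.22 in CHIP-altered hearts (limma adjusted p = 0.165), and on the second -0.12 (limma adjusted p = 0.496) and -0.30 (limma adjusted p = 0.0892). The mean of the 3 probe sets fell by 0.89 in WT (limma adjusted p = 0.0207) and by 0.94 in CHIP-altered hearts (limma adjusted p = 0.0180).

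**Figure D2:**
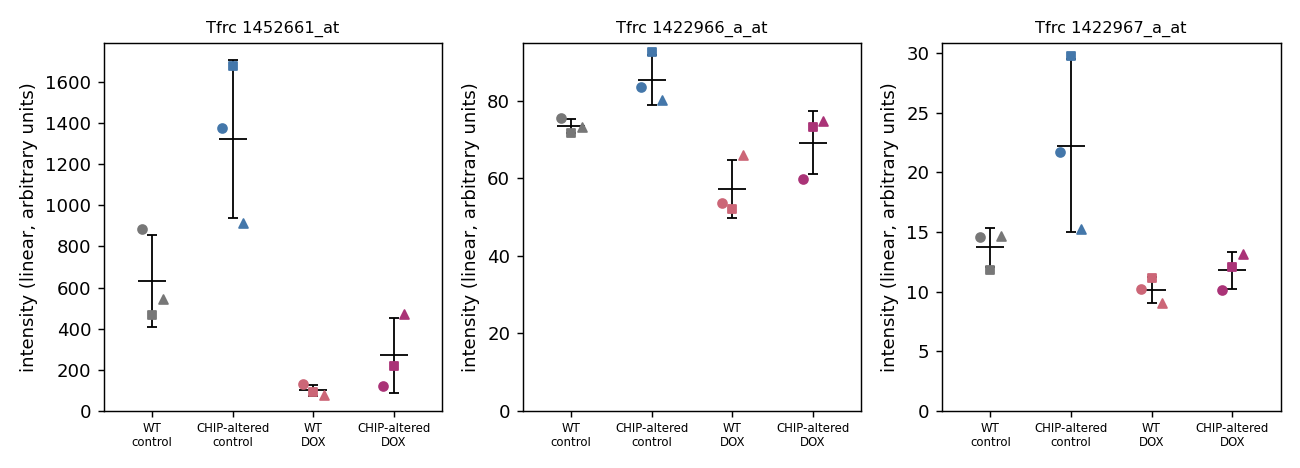
Intensity (y axis, linear from 0) of the 3 Tfrc probe sets on each array by group (x axis), with circle, square and triangle for replicates 1, 2 and 3, and a dash and bar for mean and SD. On 1452661_at the WT DOX arrays lie at 77.3 to 128 and the WT controls at 464 to 886, and the CHIP-altered arrays show the same order with more spread after DOX.

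Red cell precursors are rich in transferrin receptor, so erythroid markers are given beside the fall. Of 18 listed markers 12 were matched, and their summed intensity was 733 to 1955 on the WT control, 604 to 898 on the CHIP-altered control, 457 to 508 on the WT DOX and 500 to 569 on the CHIP-altered DOX arrays. In WT hearts 3 of the 12 were called lower after DOX (1.4% of all probe sets were) and none higher: Alas2, Bpgm and Hbb-b2. In CHIP-altered hearts 1 was called lower, Hbb-b2 (1.47% of all). Over the 12 the median log2 difference after DOX was -0.10 in WT, with 1 higher and 11 lower. In CHIP-altered hearts the median was -0.0089, with 5 higher and 7 lower. Alas2 made up most of the fall of the summed intensity in both genotypes. Alas2, the erythroid first enzyme of heme synthesis, gave 177, 538 and 978 on the WT control arrays, 146, 304 and 56.3 on the CHIP-altered control arrays, 33.4, 17.9 and 14.7 on the WT DOX and 19.97, 22.0 and 31.7 on the CHIP-altered DOX arrays. The Hba-a1 probe set was at 7.93 to 9.87 on all arrays, below the array medians of 28.9 to 30.4. At the dim end of the scale it cannot show whether red cell RNA changed. Without DOX, the log2 difference of CHIP-altered from WT hearts was -1.501 for Alas2 (limma adjusted p = 0.250) and 1.04 for Tfrc (limma adjusted p = 0.28). Fibroblast markers had the same order of groups as Tfrc without DOX, and 10 of them summed to 11422 to 14644 on the WT control, 15424 to 23045 on the CHIP-altered control, 9848 to 10816 on the WT DOX and 12326 to 14076 on the CHIP-altered DOX arrays. Of these 10, Lum was called lower after DOX in both genotypes and Col1a1 in CHIP-altered hearts. The part of blood cells or fibroblasts in the Tfrc fall was not tested, and fewer cells of a type cannot be told apart from less RNA per cell in whole-heart RNA.

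Slc11a2 encodes DMT1, which carries iron out of the endosome, and it had 4 probe sets. On the brightest, 1417584_at, the WT control arrays gave 85.0, 87.6 and 75.6 and the WT DOX arrays 79.8, 73.3 and 84.6, which overlap. The CHIP-altered control arrays gave 110, 98.6 and 102 and the CHIP-altered DOX arrays 79.2, 93.9 and 90.5, so the DOX arrays were all lower. The log2 difference was -0.04 in WT (limma adjusted p = 0.773) and -0.18 in CHIP-altered hearts (SE 0.06, limma adjusted p = 0.175). The other 3 probe sets had log2 differences between -0.19 and 0.02 over both genotypes, with overlapping arrays.

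Ferritin heavy chain, the ferroxidase subunit of the iron store, was measured at the bright end of the scale, where the highest value of the table was 27119. On 1427021_s_at the 12 arrays lay between 13503 and 18045, and on 1448771_a_at between 11775 and 15628. On 1448771_a_at the WT control arrays gave 11775, 11851 and 12501 and the WT DOX arrays 14090, 15628 and 13235. All 3 DOX arrays were above the controls, with a log2 difference of 0.25 (SE 0.06) that just missed the threshold (limma adjusted p = 0.0520). Without WT DOX replicate 3, the lowest of the 3 DOX arrays, it was 0.30 and was called (limma adjusted p = 0.0219). It was also called after quantile normalization (limma adjusted p = 0.042) and with array weights (limma adjusted p = 0.0357). It was not called at the same threshold with array medians subtracted, other added values, only the arrays compared or any other array left out. In CHIP-altered hearts the same probe set gave 12467, 13380 and 13098 without DOX and 14654, 14156 and 13779 after DOX, again without overlap, and the log2 difference was 0.13 (SE 0.06, limma adjusted p = 0.307). On 1427021_s_at the log2 difference was 0.18 in WT, where the arrays overlapped (limma adjusted p = 0.243), and 0.25 in CHIP-altered hearts, where they did not (limma adjusted p = 0.126). Without WT DOX replicate 3 the WT value was 0.27 and was called (limma adjusted p = 0.0311), and in no other setting was this WT value called.

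Ferritin light chain, the subunit that helps mineralise iron, could be read only together with Ftl1-ps2. The brightest of its shared probe sets, 1422302_s_at, gave 1698 to 1897 on the WT control and 1666 to 1964 on the WT DOX arrays, 1636 to 2388 on the CHIP-altered control and 1867 to 2423 on the CHIP-altered DOX arrays. The groups overlapped, and no shared Ftl1 probe set was called in any comparison. The log2 differences of the 3 probe sets after DOX were between -0.06 and 0.23 over both genotypes.

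Slc40a1 encodes ferroportin, the only known iron exporter of mammalian cells. On 1417061_at the WT control arrays gave 413, 661 and 579 and the WT DOX arrays 529, 869 and 912. The CHIP-altered control arrays gave 531, 353 and 262 and the CHIP-altered DOX arrays 692, 528 and 394. The means were higher after DOX in both genotypes but the arrays overlapped, and the log2 differences were 0.45 in WT (SE 0.30, limma adjusted p = 0.484) and 0.48 in CHIP-altered hearts (SE 0.30, limma adjusted p = 0.5). On the dimmer 1448566_at they were 0.43 (limma adjusted p = 0.244) and 0.23 (limma adjusted p = 0.637). Macrophages are rich in ferroportin, and their 15 markers, all matched, had lower sums after DOX in WT hearts. Their summed intensity was 6408 to 8055 on the WT control and 3884 to 5438 on the WT DOX arrays, 5767 to 12178 on the CHIP-altered control and 5667 to 6959 on the CHIP-altered DOX arrays. In WT hearts 3 of the 15 were called lower after DOX, Cd68, Csf1r and Folr2 (1.4% of all probe sets were), and none in CHIP-altered hearts (1.47% of all). At an unadjusted p under 0.05 limma gave 9 lower in WT and 7 lower in CHIP-altered hearts, and none higher. Of all 45037 probe sets 8474 and 7275 passed that limit in one or the other direction. The median log2 difference of the 15 was -0.63 in WT and -0.35 in CHIP-altered hearts. Cd68 was 108 to 135 on the WT control and 43.1 to 52.4 on the WT DOX arrays.

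Hamp encodes hepcidin, the peptide hormone that triggers the loss of ferroportin, and in the heart it was at the dim end of the scale on 11 of the 12 arrays. On 1419197_x_at the WT control arrays gave 17.4, 20.9 and 18.5, the WT DOX arrays 25.8, 19.8 and 121, the CHIP-altered control arrays 19.1, 22.1 and 18.6 and the CHIP-altered DOX arrays 18.6, 22.1 and 20.8. On 1419196_at 11 arrays were between 6.64 and 9.60 and WT DOX replicate 3 was at 32.6. The log2 difference after DOX on the first probe set was 0.60 in WT (SE 0.32, limma adjusted p = 0.362) and 0.02 in CHIP-altered hearts (limma adjusted p = 0.990). Most of the WT difference came from WT DOX replicate 3, and without that array it was 0.11. The neighbouring gene Hamp2 behaved alike on its brighter probe set, with 768 on WT DOX replicate 3 and 60.8 to 87.9 on the other 11 arrays, but its other probe set gave 37.1 there and 31.8 to 50.9 elsewhere. Hamp and Hamp2 are near-identical in part, so that their probes may read each other's message. Hepatocytes are the main source of hepcidin, and 11 of 12 listed hepatocyte markers were matched. Their summed intensity was 248 to 295 on the WT control, 262 to 398 on the CHIP-altered control, 378 to 643 on the WT DOX and 432 to 610 on the CHIP-altered DOX arrays, and WT DOX replicate 3 was the lowest of its group at 378. Ttr alone was called, higher in WT hearts after DOX (log2 difference 1.83, limma adjusted p = 0.0454), where 1.66% of all probe sets were called higher. Its mean was 43.7 on the WT control and 256 on the WT DOX arrays, and 61.0 and 276 in CHIP-altered hearts. It thus made up most of the rise of the sums. Over the 11 the median log2 difference after DOX was -0.0028 in WT, with 5 higher and 6 lower. In CHIP-altered hearts the median was 0.024, with 8 higher and 3 lower. The defining marker Alb was at 12.6 to 19.8 on all arrays, with 13.7 to 15.4 on the WT DOX arrays. The part of hepatocyte RNA in the Hamp values was not tested.

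**Figure D3:**
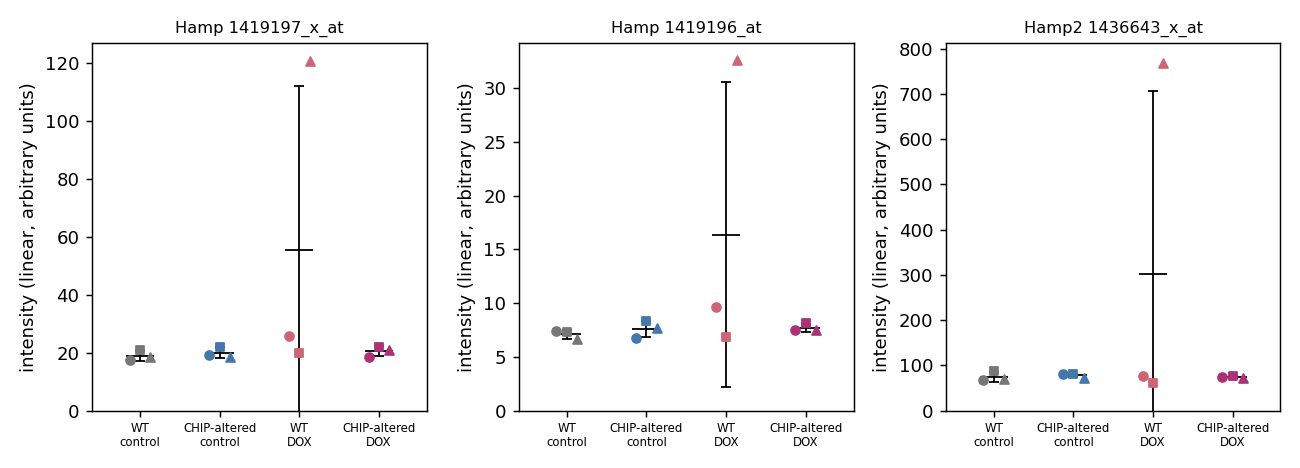
Intensity (y axis, linear from 0) of 2 Hamp probe sets and 1 Hamp2 probe set on each array by group (x axis), with circle, square and triangle for replicates 1, 2 and 3, and a dash and bar for mean and SD. WT DOX replicate 3 lies at 121, 32.6 and 768, far above all other arrays in each panel.

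Aco1 encodes IRP1, a cytosolic aconitase that binds RNA when it lacks its iron-sulfur cluster. On 1456728_x_at the CHIP-altered control arrays gave 657, 737 and 762 and the CHIP-altered DOX arrays 502, 546 and 593, with no overlap. The WT control arrays gave 605, 581 and 594 and the WT DOX arrays 535, 663 and 609, which overlap. The log2 difference after DOX was -0.37 in CHIP-altered hearts (SE 0.08, limma adjusted p = 0.0510) and 0.02 in WT (SE 0.08, limma adjusted p = 0.955), and the interaction was -0.39 (SE 0.12, limma adjusted p = 0.464). The CHIP-altered value was called in several other settings, among them a fit to 1 probe set per gene (limma adjusted p = 0.0355). It was not called in others, among them quantile normalization (limma adjusted p = 0.0701), array weights (limma adjusted p = 0.0668) and only the arrays compared (limma adjusted p = 0.121). With 1 array left out it was never called. The second Aco1 probe set, 1423644_at, gave -0.14 in CHIP-altered hearts (limma adjusted p = 0.398), with overlapping arrays, and the third was at 6.24 to 11.2 on all arrays.

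Ireb2 encodes IRP2, which is degraded when iron is plentiful and thus is controlled as a protein. On its only probe set, 1433527_at, the 12 arrays lay between 200 and 259. The WT control arrays gave 213, 231 and 211, the WT DOX arrays 216, 259 and 229, the CHIP-altered control arrays 219, 226 and 215 and the CHIP-altered DOX arrays 216, 216 and 200. All groups overlapped. The log2 difference after DOX was 0.09 in WT (SE 0.06, limma adjusted p = 0.470) and -0.06 in CHIP-altered hearts (SE 0.06, limma adjusted p = 0.730).

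Cp encodes ceruloplasmin, a copper ferroxidase and an acute phase protein, and its 8 probe sets were all higher after DOX in the means of both genotypes. In WT hearts the 3 DOX arrays lay above the 3 controls on all 8, and the mean intensity rose by 2.095-fold to 4.34-fold. In CHIP-altered hearts the mean was 1.24-fold to 2.45-fold higher, and the arrays were separated on 3 of the 8. The 8 probe sets read 1 gene and are not independent.

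The 2 probe sets called in both genotypes were 1417497_at and 1448735_at. On 1417497_at the WT control arrays gave 189, 195 and 183 and the WT DOX arrays 524, 482 and 334, and the CHIP-altered arrays gave 158, 187 and 233 without DOX and 498, 476 and 442 after DOX. Every DOX array was above every control array. The log2 difference was 1.09 in WT (SE 0.15, limma adjusted p = 0.0145) and 1.18 in CHIP-altered hearts (SE 0.15, limma adjusted p = 0.0102). On 1448735_at the WT arrays gave 349, 394 and 349 without and 822, 851 and 614 with DOX, and the CHIP-altered arrays 295, 330 and 424 without and 726, 701 and 606 with DOX, again with no overlap. Its log2 difference was 0.99 in WT (SE 0.14, limma adjusted p = 0.0156) and 0.91 in CHIP-altered hearts (SE 0.14, limma adjusted p = 0.0188). The dim probe set 1441326_at was called in WT hearts alone, with 29.1, 10.1 and 18.0 without and 113, 81.6 and 53.1 with DOX, a log2 difference of 1.15 (SE 0.21, limma adjusted p = 0.0273). In CHIP-altered hearts it gave 19.8, 15.6 and 28.5, then 54.1, 27.5 and 31.7, and the interaction was -0.77 (SE 0.30, limma adjusted p = 0.549).

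The other 5 Cp probe sets missed the threshold in both genotypes. On the brightest, 1417494_a_at, the WT control arrays gave 845, 890 and 1092 and the WT DOX arrays 2654, 1943 and 1606, with a log2 difference of 1.09 (SE 0.37, limma adjusted p = 0.142). The CHIP-altered control arrays gave 1200, 836 and 2814 and the CHIP-altered DOX arrays 2457, 2472 and 1935, with 0.67 (SE 0.37, limma adjusted p = 0.423). The CHIP-altered controls overlapped the DOX arrays, and their replicate 3 was the highest of all 12. On these 5 probe sets that array was 2.08 to 3.0 times the mean of the other 2 arrays of its group, but only 1.35 to 1.36 times on 1417497_at and 1448735_at.

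Without CHIP-altered control replicate 3, 6 of the 8 Cp probe sets and 2 of the 3 Tfrc probe sets were called in CHIP-altered hearts, which raised the count of calls from 3 to 8. On 1417494_a_at the log2 difference was then 1.16 (limma adjusted p = 0.0473). Other arrays worked the other way: when each of the 6 arrays compared was left out, 1417497_at stayed called in 3 of 6 fits in WT (adjusted p from limma 0.00325 to 0.0654, not called without WT control replicate 2 or 3 or WT DOX replicate 2) and in 5 of 6 in CHIP-altered hearts (0.0164 to 0.0510, not called without CHIP-altered DOX replicate 1). On 1448735_at it was 2 of 6 and 4 of 6, and on 1441326_at 2 of 6 in WT. The count of member probe sets called was 0 in WT hearts without WT control replicate 2, WT control replicate 3 or WT DOX replicate 2, and 1 without WT DOX replicate 1. Without WT DOX replicate 3 it was 7, among them both Fth1 probe sets. In CHIP-altered hearts it was 0 without CHIP-altered DOX replicate 1 and 1 without CHIP-altered DOX replicate 2. The share of all probe sets called in these fits was not computed. The change of the counts can therefore not be read as particular to these genes.

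**Figure D4:**
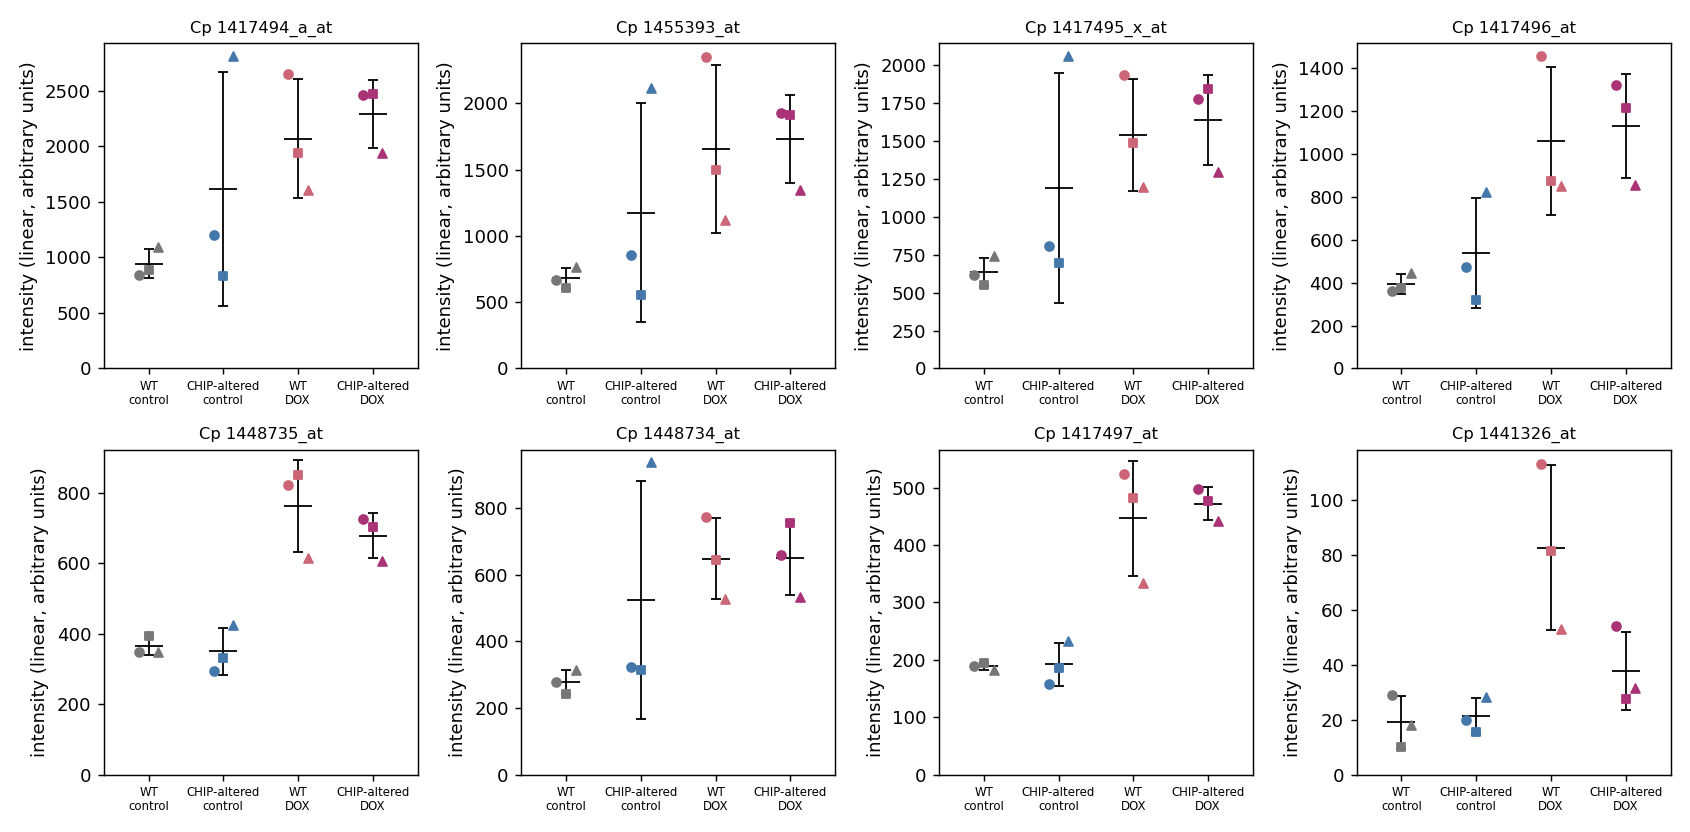
Intensity (y axis, linear from 0) of the 8 Cp probe sets on each array by group (x axis), with circle, square and triangle for replicates 1, 2 and 3, and a dash and bar for mean and SD. On 1448735_at and 1417497_at all 6 DOX arrays lie above all 6 control arrays, and on 5 other panels CHIP-altered control replicate 3 (blue triangle) lies among or above the DOX arrays.

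Ceruloplasmin belongs to the acute phase response, so other genes of that response are given beside it. The summed intensity of 18 acute phase and STAT3 target genes, all matched, was 2322 to 2677 on the WT control arrays, 3439 to 7042 on the WT DOX arrays and 3142 to 5209 on the CHIP-altered DOX arrays, and on the CHIP-altered control arrays it was 2752, 2426 and 8733. Of the 18, Fgl2, a fibrinogen-like protein, was called between the genotypes without DOX, with 168, 163 and 183 on the WT control and 296, 497 and 577 on the CHIP-altered control arrays (log2 difference 1.22, SE 0.20, limma adjusted p = 0.0209), and stayed called in 2 of 6 fits with 1 array left out. Of all probe sets 1.81% were called in that comparison. None of the 18 was called after DOX in either genotype. At an unadjusted p under 0.05 limma gave 4 higher and none lower in WT hearts. In CHIP-altered hearts it gave none higher and 1 lower. Of all 45037 probe sets 8474 in WT and 7275 in CHIP-altered hearts passed that limit in one or the other direction. Lcn2, an iron siderophore-binding protein of this response, gave 19.1 and 30.3 on the first 2 CHIP-altered control arrays and 1534 on replicate 3, against 54.8 to 71.9 on the WT control arrays. The hepatocyte marker sums given with Hamp were also higher on the DOX arrays of both genotypes, mostly through Ttr, which alone was called. The part of these genes in the Cp rise was not tested.

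Transferrin, the plasma carrier of iron, could be read only together with Srprb, on 1425546_a_at. The WT control arrays gave 177, 149 and 180 and the WT DOX arrays 107, 109 and 126, all lower, with a log2 difference of -0.45 (SE 0.16, limma adjusted p = 0.146). The CHIP-altered control arrays gave 167, 119 and 205 and the CHIP-altered DOX arrays 153, 155 and 115, which overlap, with -0.16 (SE 0.16, limma adjusted p = 0.710).

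Between the genotypes no member probe set was called. Without DOX the count was 0 of 25 (1.81% of all probe sets were called in one or the other direction), and after DOX it was also 0 of 25 (0.941% of all). At an unadjusted p under 0.05 limma gave 4 of the 25 without DOX and 4 after it, against 6358 and 6969 of all 45037, which is about the same share. Without DOX the 3 CHIP-altered arrays lay all above the 3 WT arrays for 6 of the 25 (19.4% of all probe sets were separated), and after DOX for none (20.4% of all). The 6 were the 3 Tfrc probe sets, 2 of Slc11a2 and 1 of Aco1, and the share is near that of all probe sets.

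On the brightest Tfrc probe set the CHIP-altered controls, at 917 to 1678, lay above the WT controls at 464 to 886. The log2 difference was 1.04 (SE 0.41, limma adjusted p = 0.28). After DOX it was 1.05 (SE 0.41, limma adjusted p = 0.261) and the arrays overlapped, with 118 to 472 against 77.3 to 128. For Slc11a2 on 1417584_at it was 0.24 without DOX (SE 0.06, limma adjusted p = 0.0857) and was called when arrays were weighted (limma adjusted p = 0.0393) or at a threshold of 0.10. For Aco1 on 1456728_x_at it was 0.26 (SE 0.08, limma adjusted p = 0.165). Slc40a1 on 1417061_at lay the other way, with a log2 difference of -0.52 without DOX (SE 0.30, limma adjusted p = 0.511) and -0.49 after it (SE 0.30, limma adjusted p = 0.486), and its arrays overlapped. The paper lists Cp among the genes lower in its transgenic than in WT hearts after DOX. Here the Cp means after DOX were 82.6 in WT and 37.8 in CHIP-altered hearts on the dim 1441326_at. On 1448735_at they were 762 and 678. On the other Cp probe sets the mean was higher in CHIP-altered hearts, with 2068 in WT and 2288 in CHIP-altered hearts on 1417494_a_at.

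In the interaction test, which asks if the DOX response differs between genotypes, 0 of the 25 were called by limma and 0% of all probe sets were, with 2 of the 25 and 3914 of all at an unadjusted p under 0.05. The standard error of the interaction was 0.59 for the brightest Tfrc and 0.52 for the brightest Cp probe set on the log2 scale. Differences of that order between the genotypes, and also larger ones, can go uncalled with 3 arrays a group. The Hmox1 interaction given below was -0.99 with a standard error of 0.28 and was not called.

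Among other genes of iron metabolism, read on the brightest probe set of each, those of heme synthesis, breakdown and transport held 5 called in WT hearts after DOX. Of 24 matched genes of 25 listed, 4 were called lower and 1 higher in WT hearts (1.4% and 1.66% of all probe sets were), and 3 lower and none higher in CHIP-altered hearts (1.47% and 0.731% of all). Their median log2 difference was -0.05 in WT and -0.06 in CHIP-altered hearts. Alas1, the housekeeping first enzyme of heme synthesis, gave 1093, 899 and 802 on the WT control and 421, 316 and 451 on the WT DOX arrays, and 1272, 1510 and 1262 on the CHIP-altered control and 467, 644 and 706 on the CHIP-altered DOX arrays. Every DOX array was below every control array, and the log2 difference was -1.17 in WT (SE 0.17, limma adjusted p = 0.0157) and -1.13 in CHIP-altered hearts (SE 0.17, limma adjusted p = 0.0176). Alas2 had a log2 difference of -3.21 in WT (SE 0.57, limma adjusted p = 0.0249) and -1.63 in CHIP-altered hearts (SE 0.57, limma adjusted p = 0.185). It is also one of the erythroid markers given with Tfrc, and it made up most of the fall of their sum.

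Hmox1, heme oxygenase 1, which frees iron from heme, gave 68.5, 65.1 and 67.8 on the WT control and 152, 276 and 134 on the WT DOX arrays, all higher, with a log2 difference of 1.09 (SE 0.20, limma adjusted p = 0.0269). On the CHIP-altered control arrays it gave 69.4, 75.7 and 95.0 and on the CHIP-altered DOX arrays 98.7, 95.3 and 71.3, which overlap, with 0.10 (SE 0.20, limma adjusted p = 0.881). The difference between these responses was -0.99 and was not called (SE 0.28, limma adjusted p = 0.464). After DOX every CHIP-altered array was below every WT array, but the log2 difference of -0.82 was not called (SE 0.20, limma adjusted p = 0.0902). The paper lists Hmox1 among the genes lower in its transgenic than in WT hearts after DOX. Tmem14c, a mitochondrial carrier of heme precursors, and Blvra, which reduces biliverdin made from heme, were lower in both genotypes, by log2 differences of -0.32 and -0.32 for Tmem14c (limma adjusted p = 0.0380 and 0.0415) and -0.27 and -0.28 for Blvra (limma adjusted p = 0.0290 and 0.0288). When each array was left out in turn, Alas1 stayed called in 3 of 6 fits in WT and 5 of 6 in CHIP-altered hearts, Alas2 and Hmox1 in 2 of 6, and Tmem14c in 0 of 6 in WT and 2 of 6 in CHIP-altered hearts. Blvra stayed called in 1 of 6 in each genotype.

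**Figure D5:**
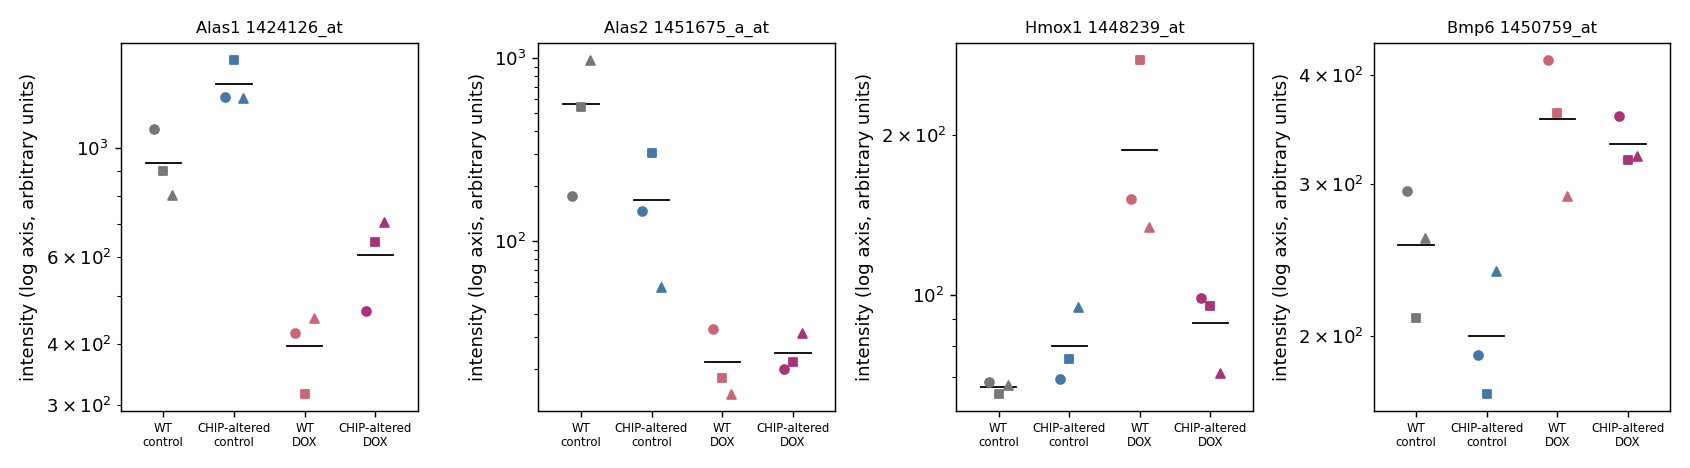
Intensity (y axis, log scale) of Alas1, Alas2, Hmox1 and Bmp6 on each array by group (x axis), with circle, square and triangle for replicates 1, 2 and 3 and a line for the mean. Alas1 and Alas2 lie lower on all DOX arrays than on the control arrays of their genotype, and Hmox1 lies higher on the WT DOX arrays, at 134 to 276 against 65.1 to 68.5.

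Regulators of hepcidin and ferritin showed no call. Of 15 matched genes of 16 listed for export and hepcidin control, the smallest p was that of Bmp6, a ligand that induces hepcidin in the liver, with 295, 210 and 260 on the WT control, 417, 362 and 291 on the WT DOX, 190, 172 and 238 on the CHIP-altered control and 359, 320 and 323 on the CHIP-altered DOX arrays. The log2 difference was 0.67 in CHIP-altered hearts (SE 0.15, limma adjusted p = 0.0514), where the arrays did not overlap, and 0.44 in WT (SE 0.15, limma adjusted p = 0.142), where they did. Of 8 matched ferritin and iron chaperone genes of 9 listed, the smallest p was that of Pcbp4, of the family of poly(rC)-binding proteins, at -0.33 in WT hearts (limma adjusted p = 0.0598).

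Of the 16 other genes of iron import and reduction, all matched, none was called after DOX. Between the genotypes without DOX 2 were called (1.81% of all probe sets were, in one or the other direction). Steap3, the endosomal ferrireductase that works beside DMT1, was 85.1, 84.4 and 77.5 on the WT control and 183, 124 and 133 on the CHIP-altered control arrays, a log2 difference of 0.63 (SE 0.12, limma adjusted p = 0.0317). Exoc6, an exocyst subunit needed for transferrin receptor recycling in red cell precursors, was 760, 761 and 772 on the WT control and 510, 433 and 419 on the CHIP-altered control arrays, a log2 difference of -0.72 (SE 0.11, limma adjusted p = 0.0196). Each stayed called in 2 of 6 fits with 1 array left out. Of 27 matched genes of 33 for mitochondrial iron and iron-sulfur clusters, Iscu, the cluster scaffold, was higher in CHIP-altered than in WT hearts without DOX (log2 difference 0.54, limma adjusted p = 0.0178), Nubpl, an assembly factor of complex I, was lower in CHIP-altered than in WT hearts after DOX (log2 difference -0.38, limma adjusted p = 0.0432), and Glrx5, which passes clusters on, fell after DOX in WT hearts (log2 difference -0.33, limma adjusted p = 0.0461). Iscu was also higher in CHIP-altered than in WT hearts after DOX, without a call (log2 difference 0.34, limma adjusted p = 0.09). Of all probe sets 0.941% were called between the genotypes after DOX, and 1.4% were called lower after DOX in WT hearts. Of 18 ferroptosis genes, all matched, Gpx4, which reduces lipid peroxides, and Chac1, which degrades glutathione, were higher in CHIP-altered than in WT hearts without DOX (log2 differences 0.38 and 0.71, limma adjusted p = 0.0315 and 0.0493). After DOX these differences were 0.33 and 0.65 and were not called (limma adjusted p = 0.0605 and 0.0813). None of the 18 responded to DOX with a call in either genotype. At an unadjusted p under 0.05 limma gave 6 of them in WT and 4 in CHIP-altered hearts. It gave 8474 and 7275 of all 45037 probe sets, so the shares are of like order. With 1 array left out in turn, Iscu stayed called in 4 of 6 fits, Glrx5, Gpx4 and Chac1 in 1 of 6 and Nubpl in 0 of 6.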

How the data were processed

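Expression was measured on 12 Affymetrix arrays of whole-heart Trizol RNA, 3 for each of 4 groups taken from the deposited labels. Per the labels the intensities, which the authors deposited as linear values per probe set, were made with Affymetrix Expression Console. The version, summary method and array build are not given in the sources used here. No array was dropped and no scaling was added.

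Values were analysed as log2(intensity + 32), which understates changes of dim probe sets. A model of 4 group means on all 12 arrays was fitted with limma 3.58.1 in R 4.3.3 (eBayes without trend). Tests were two-sided, and p was adjusted by Benjamini-Hochberg over all 45037 probe sets and called at 0.05. The steps were tested on simulated data. An exact permutation test of 3 against 3 arrays cannot go below p = 0.1 and was not used. P-values measure the spread between these arrays. Levels of different probe sets were not compared, since probes differ in brightness.

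All probe sets of each member are given, brightest over 12 arrays first. From each pathway list (brightest probe set per gene) every called gene was named, at most 6 a list by size of change, or else the gene with the smallest p. Of the cell type markers Hba-a1, Alas2, Alb, Cd68, Myh6 and S100a8 were to be named, and the others, with Lcn2, were named after their values were seen. The members and lists were chosen with earlier results of these data known. Probe sets with several genes were not assigned to any. Promoters are from a RefSeq table of GRCm38.p6, searched with pandas 2.3.3 in Python 3.11.15 and plotted with matplotlib 3.10.9. Ferritin, transferrin and iron protein levels were not measured.

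Alternatives were quantile normalization, subtraction of array medians, other added values (1, 16 and 64), only probe sets with a mean of at least 64, array weights, a variance trend with robust fitting, the replicate number as a block, only the arrays compared, the methods' t-test, 1 probe set or the mean of probe sets per gene, a threshold of 0.10, and leaving out each array in turn.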

Additional observations from a re-analysis of the deposited data

How the results depend on the processing

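The number of member probe sets called in WT hearts after DOX, 4, was 7 with array weights, 8 at a threshold of 0.10, 0 by the methods' t-test (12 at its unadjusted threshold), and 0 to 7 with 1 array left out. In CHIP-altered hearts the number, 3, was 5 with only probe sets of a mean of at least 64, 5 at a threshold of 0.10, 0 with only the arrays compared, 0 by the methods' t-test (6 at its unadjusted threshold), and 0 to 8 with 1 array left out. Between the genotypes without DOX it was 1 with array weights and 1 at a threshold of 0.10, against 0, and the methods' t-test gave 0 (4 at its unadjusted threshold). After DOX it gave 0 and 0. At the same unadjusted threshold the methods' t-test gave 6756, 5349, 4966 and 5292 of all 45037 probe sets in these 4 comparisons. With a replicate block the number of member probe sets called was 4 in WT and 4 in CHIP-altered hearts, and the limma adjusted p of Tfrc was 0.0456 and 0.0496. The share of all probe sets called was not computed for the limma settings other than the main fit, so these numbers have no background beside them. Arrays with the same number correlated in their deviations from the group means with r of -0.25 to 0.15. Arrays of different groups and numbers gave r of -0.29 to 0.28. This gave no sign that the numbers pair the arrays but cannot exclude it. Of the brightest probe sets, Tfrc in CHIP-altered hearts lost its call with only the arrays compared (limma adjusted p = 0.115). Some differences that were never called changed sign. Aco1 in WT hearts after DOX was -0.029 with quantile normalization, -0.010 with array weights, -0.0026 as the mean of its probe sets, and -0.052 to 0.094 with 1 array left out. The genotype difference of Cp after DOX was -0.033 as the mean of its probe sets. Hamp in CHIP-altered hearts was -0.0018 with medians subtracted and -0.0066 to 0.045 with 1 array left out. Between the genotypes without DOX, leaving out 1 array gave -0.00053 to 0.057 for Hamp and -0.0095 to 0.046 for Ireb2. The interaction of Tfrc was -0.012 with medians subtracted, -0.10 with 64 added, -0.075 with array weights and -0.049 as the mean of probe sets, that of Slc40a1 was -0.067 with array weights and -0.085 as the mean, and that of Fth1 was -0.020 as the mean. With 1 array left out the interaction ranged from -0.45 to 0.43 for Tfrc, -0.21 to 0.28 for Slc40a1, -0.017 to 0.13 for Fth1 and -0.79 to 0.071 for Cp. The cause was not tested. Both scalings moved the median of all probe sets by at most 0.023. Over the members' brightest probe sets and all alternatives, 772 values kept direction and side of the threshold, 12 lost and 12 gained a call, and 31 changed sign.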

Other observations

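On WT DOX replicate 3, the array with the high Hamp and Hamp2 values, 29 probe sets lay above all other arrays by over 0.5 on the log2 scale. Of the 27 that name 1 gene with a chromosome in the RefSeq table, 8 (29.6%) lie on the chromosome of Hamp, where 7.03% of all such probe sets lie. The 2 Hamp probe sets and 1 of Hamp2 are among these 8, with Fah (1338 on that array and at most 338 on the others), Bcat2 (572 and at most 227), Hddc3 (149 and at most 44.9), Kcnj14 (61.6 and at most 18.6) and Zfp30 (263 and at most 135). Genes on other chromosomes were also raised there, among them Pdxdc1 (381 and at most 22.3) and Xaf1 (209 and at most 20.1). On the 2 other arrays with more such probe sets the share was 6.57% of 274 on CHIP-altered control replicate 3 and 10.6% of 85 on WT DOX replicate 2. This pattern was chosen after the values were seen, and its cause was not tested.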
